A study of Mus musculus with 4 samples.

Results

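Replacement histones are core histones that are made outside S phase and exchanged into chromatin without DNA replication. H3.3, encoded by H3f3a and H3f3b as the same protein from separate genes, marks transcribed genes and enhancers and is laid down at regions of rapid nucleosome turnover. H2A.Z, from H2afz and H2afv, sits around transcription starts, macroH2A1, from H2afy, carries a large extra domain linked to repression, and H2A.X, from H2afx, is phosphorylated around DNA breaks. Unlike those of the histones made for S phase, most of their mRNAs are polyadenylated, so they are captured by oligo-dT labelling, also in resting lymphocytes; H2afx makes both forms.

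These 6 genes were examined through the probe sets that the annotation of the mouse array assigns to 1 of them alone, with older symbols matched by Entrez identifier. They are 6 of the 18193 genes that the array measures by a probe set of their own, and had 8 such probe sets among 45101: 1 each for H3f3b, H3f3a, H2afy and H2afx, and 2 each for H2afz and H2afv. All 8 passed the filter on low values. The genes were chosen by measured values, those of H3f3b in the knockout against wild-type contrast of these arrays, with the other variant histones as its relatives; so all values of that contrast for these genes are given as a description, without a test. A further 7 probe sets list a member together with other genes and are given beside the members as shared probe sets: 5 list H3f3a, H3f3b and 4 more entries, and 2 list H2afz with 1 more entry.

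RNA came from freshly isolated naive helper T cells of mice aged 10 to 11 weeks, sorted for CD4 and CD62L and against CD44, and was hybridised to 4 Affymetrix mouse whole-genome arrays. The knockout mice carried CD4-cre with fur flox/flox, so Cre is expressed under the CD4 promoter and acts in T cells generally, and the wild-type littermates carried fur flox/flox without Cre. Each group had 2 arrays, numbered 1 and 2 in the labels; nothing says that they came from separate animals, so every spread below may be technical. Values are MAS5 signals on a linear scale, and differences are knockout minus wild type of log2(signal + 15.3); the added 15.3 makes changes of dim probe sets look smaller than they were. The number of arrays limits the precision of all of them. In bulk RNA, fewer cells of a type and less RNA per cell cannot be told apart.

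The only Furin probe set read 435.1 and 343.9 on the wild-type arrays and 391.4 and 446.9 on the knockout arrays, so the groups overlapped; the part of the gene that was deleted is not stated, and a probe set outside it would not register the deletion, so these values are no check of the labels. Arrays numbered 1 and 2 differed far more than the groups did: in limma with genotype as a second term 34.6% of 22518 kept probe sets differed between the numbers at a Benjamini-Hochberg adjusted p of 0.05, against 0.0266% (6 probe sets, and 1897 at an unadjusted p under 0.05) between knockout and wild type in the same fit. Without the number in the fit, limma called 0% between knockout and wild type (145 probe sets at an unadjusted p under 0.05). Each comparison is therefore given within arrays numbered 1 and within arrays numbered 2. T cell markers were bright on all arrays, with Cd3e between 3160.7 and 7706.7 and Cd4 between 2974.4 and 3432.4. Of 8 kept T cell markers, 0 were higher and 4 lower in knockout on both array numbers, with a median difference of -0.06. Markers of neutrophils and other myeloid cells were summed over the 14 on the array, kept or not. The sums were 667.2 and 1509.3 on the wild-type arrays and 1404.1 and 13142 on the knockout arrays. All 10 kept members were higher on both array numbers, against 27.7% of all kept genes. Some, such as Camp (3 and 85.3 in wild type) and Ltf (12.9 and 84.2), had wild-type means below the filter level. They passed it through their knockout arrays, so the filter fixed the direction of their mean difference. The 11 B cell markers on the array summed to 1296 and 5182 against 1802.5 and 17809.3, with 8 of 9 kept ones higher on both. Among defining markers, Pax5 and Ebf1 of B cells and Itgam, Elane and Mpo of myeloid cells lay below the filter level.

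The sequences before the 2 genes of H3.3 differ although the protein is the same, and they are shown as background. Their part in the values below was not tested. Each run is the 250 bases before the gene start, 5′ to 3′ on the coding strand, from RefSeq promoters of build GRCm38.p6; capitals mark matches to the motifs named after them. For H3f3b the run lies at chr11:116024505-116024754 on the minus strand, and for H3f3a at chr1:180813606-180813855 on the minus strand.
H3f3b: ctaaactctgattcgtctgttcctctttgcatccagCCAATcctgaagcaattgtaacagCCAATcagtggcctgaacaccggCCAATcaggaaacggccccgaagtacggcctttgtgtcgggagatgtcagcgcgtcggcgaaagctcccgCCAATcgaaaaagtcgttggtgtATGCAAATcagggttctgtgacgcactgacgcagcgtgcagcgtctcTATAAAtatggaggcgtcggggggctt
H3f3a: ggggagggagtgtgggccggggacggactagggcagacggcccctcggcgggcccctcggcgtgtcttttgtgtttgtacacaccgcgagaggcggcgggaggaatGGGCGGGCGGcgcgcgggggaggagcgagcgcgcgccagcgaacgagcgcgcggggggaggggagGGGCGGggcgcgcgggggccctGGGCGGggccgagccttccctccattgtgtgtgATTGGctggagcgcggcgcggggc

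Letters were searched on both strands for the CCAAT box (CCAAT), GC box (GGGCGG), octamer (ATTTGCAT), TATA box (TATAAA), AP-1 site (TGANTCA), cAMP response element (TGACGTCA) and heat shock half-site pair (GAANNTTC). H3f3b held 4 CCAAT boxes starting at -214, -190, -167 and -97, an octamer at -74 and a TATA box at -27. H3f3a held none of the last pair, but 4 GC boxes at -144, -140, -79 and -57, the first and second of which overlap, and 1 CCAAT box at -24. Among the other members with a promoter in the table, H2afv also held 4 CCAAT boxes, at -244, -224, -59 and -17, H2afz held 2 and H2afy held 0. The octamer and TATA letters were in none of these. Of all 32851 RefSeq promoters in the same window, 33.8% held a CCAAT box and 0.840% held 4 or more, 1.60% held the octamer, 12.4% the TATA box and 32.7% a GC box. The AP-1 letters, present in 6.75% of promoters, the cAMP response element, in 1.55%, and the heat shock letters, in 6.69%, were in neither run. The H3f3b run had 54.0% G and C and that of H3f3a 77.2%. These are matches of letters, not measured sites, and the arrays did not measure the promoters.

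The only single-gene probe set of H3f3b, 1430357_at, was the member probe set with the largest difference between the genotypes. Its representative sequence matched no transcript in the RefSeq table. This held for most of the member and shared probe sets, of which only 1416746_at and 1420376_a_at matched one. Where 1430357_at lies relative to the exons and strand of the gene was not analysed here. Its values are therefore those of 1 probe set and cannot be read as the level of H3f3b mRNA. A probe set built on that mRNA is given below, but it also lists H3f3a and 4 more entries. Probe set 1430357_at read 244.7 and 272.9 on wild-type arrays 1 and 2, and 5226.3 and 2106.6 on knockout arrays 1 and 2. Both knockout arrays lay far above both wild-type arrays, and the wild-type arrays lay close together while the knockout arrays did not. The means were 258.8 ± 19.9 (SD, n = 2) in wild type and 3666 ± 2206 (SD, n = 2) in knockout. The signal was 21.4-fold higher on arrays numbered 1 and 7.72-fold higher on those numbered 2, or 4.33 and 2.88 on the log2 scale, with a mean of 3.61 (SE 0.53 without a block for array number, 0.36 with it). Among 22518 kept probe sets this mean difference ranked 5, the difference on arrays numbered 1 ranked 3 and that on arrays numbered 2 ranked 28. It was 1 of 37 probe sets, 0.164% of those kept, in which each knockout array exceeded each wild-type array by 2-fold or more; 9 probe sets (0.04%), none of a member, were lower by as much. This is the contrast that chose the gene. With 1 array left out the difference ran from 2.95, without knockout array 1, to 4.26, without knockout array 2.

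**Figure D1:**
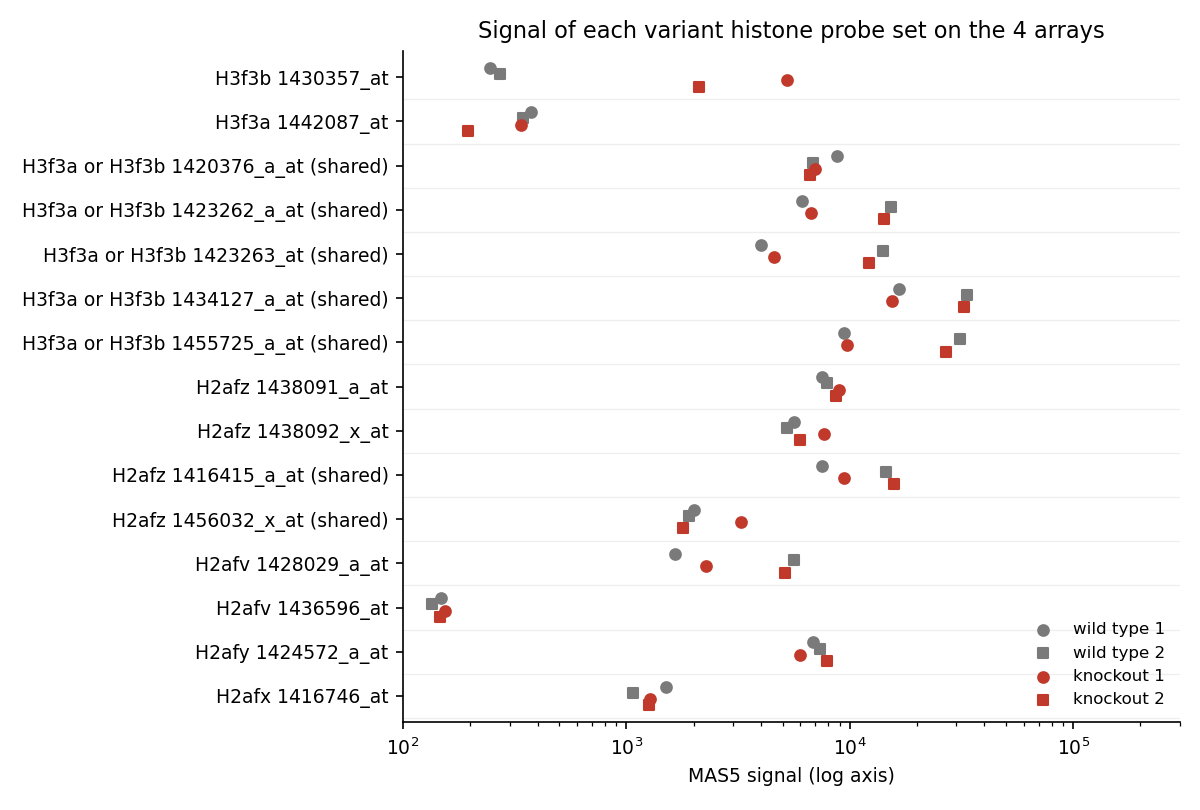
MAS5 signal (log axis) of the 8 member and 7 shared probe sets on each of the 4 arrays; circles are arrays numbered 1, squares arrays numbered 2, grey wild type and red knockout. In the H3f3b row the red points, 5226.3 and 2106.6, stand apart from the grey ones, 244.7 and 272.9, and in the rows of the shared H3.3 probe sets red and grey points of the same number lie together.

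The 5 shared probe sets that list both H3.3 genes showed no such difference. The one whose representative sequence is the RefSeq mRNA of H3f3b itself, 1420376_a_at, read 8768.8 and 6854.7 in wild type and 7004.2 and 6612.2 in knockout. Its knockout arrays thus lay among and below the wild-type arrays, with differences of -0.32 and -0.05 on the numbers. Probe set 1434127_a_at read 16532.7 and 33615.5 in wild type and 15409.7 and 32511.8 in knockout. Probe set 1455725_a_at read 9428.9 and 31256.4 against 9694.2 and 27017.6. In both, the arrays numbered 2 read higher than those numbered 1 and the genotypes overlapped. The pair 1423262_a_at and 1423263_at came from the same representative sequence and differed by 0.13 and 0.19 on arrays numbered 1 and by -0.09 and -0.22 on those numbered 2. Over the 5 the mean difference ran from -0.19 to 0.02, the within-number differences from -0.32 to 0.19, and the groups overlapped in all 5. The annotation does not separate H3f3a, H3f3b and the 4 more entries in these probe sets, so they cannot be read as the level of either gene.

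H3f3a, the other source of H3.3, had its own probe set, 1442087_at, with signals of 374.5 and 345.8 in wild type and 338.4 and 194.5 in knockout. The groups did not overlap, but knockout array 1 lay just under the lower wild-type array, and the low value was that of knockout array 2. The means were 360.2 ± 20.3 and 266.5 ± 102 (SD, n = 2 each), and the differences -0.14 and -0.78, with a mean of -0.46 (SE 0.40). The single-gene probe sets of H3f3a and H3f3b thus differed in opposite directions. The representative sequence of 1442087_at also matched no RefSeq transcript, so its values too cannot be read as the level of H3f3a mRNA.

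**Figure D2:**
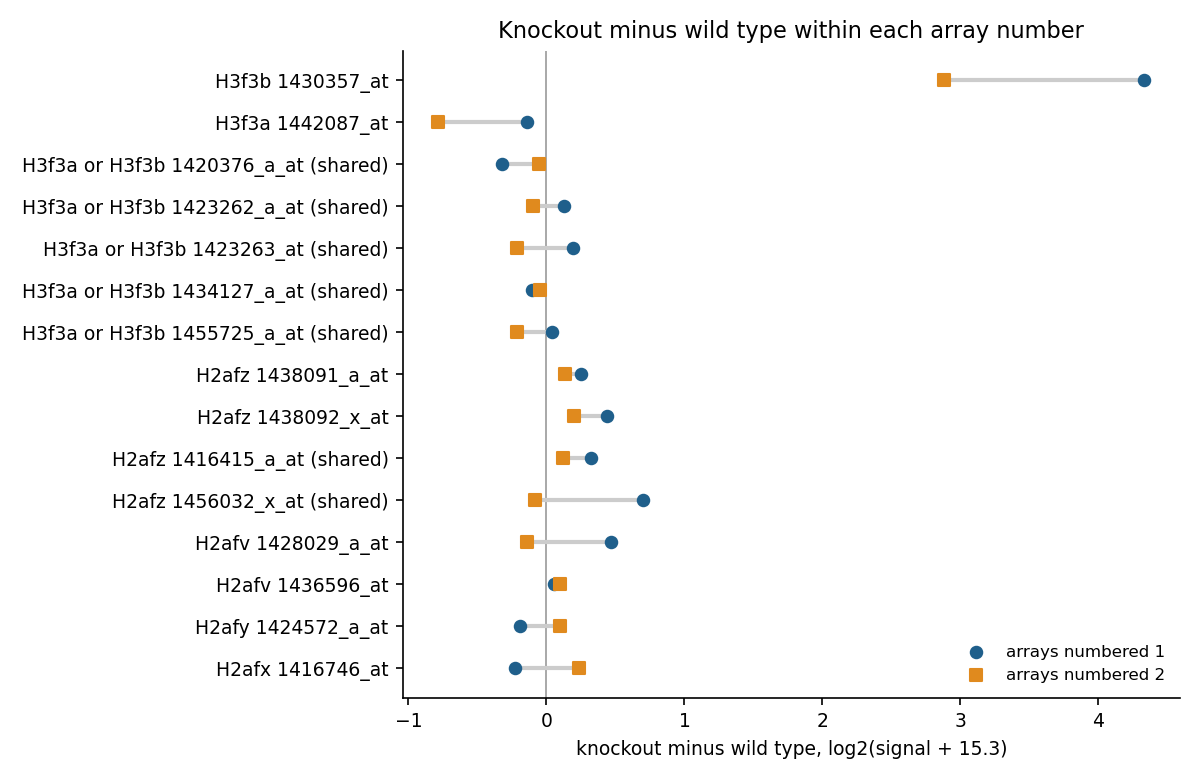
Knockout minus wild type as differences of log2(signal + 15.3), within arrays numbered 1 (circles) and within those numbered 2 (squares), for the same probe sets. H3f3b lies at 4.33 and 2.88, and every other point lies between -0.78 and 0.70.

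The single-gene probe sets of the H2A.Z genes differed by at most 0.47 between the genotypes on either number. H2afz probe set 1438091_a_at read 7487.8 and 7874.9 in wild type and 8903.9 and 8650 in knockout. Probe set 1438092_x_at read 5643.2 and 5231.8 against 7657.8 and 6010.2. In both, each knockout array lay above both wild-type arrays, by a small margin. The differences were 0.25 and 0.14 for the former and 0.44 and 0.20 for the latter, with means of 0.19 (SE 0.32) and 0.32 (SE 0.34), each smaller than its SE without a block for array number. With the block both SEs were 0.19, so that the latter mean exceeded its SE and the former equalled it at this precision. These probe sets share their representative sequence and are not independent measurements of the gene. Of the shared H2afz probe sets, 1416415_a_at differed by 0.32 and 0.12, and 1456032_x_at by 0.70 and -0.08, with overlapping groups in both. H2afv probe set 1428029_a_at read 1643.5 and 5639.8 in wild type and 2277.5 and 5113 in knockout, so its level followed the array number and its differences of 0.47 and -0.14 had opposite signs. The dim H2afv probe set 1436596_at read 147.8 and 134.8 against 154 and 145.6, with a mean difference of 0.08 (SE 0.32).

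H2afy and H2afx, the macroH2A1 and H2A.X genes, did not separate the groups. H2afy read 6834.4 and 7376.5 in wild type and 5986.6 and 7904.5 in knockout, the knockout values lying on either side of the wild-type ones, with a mean difference of -0.05 (SE 0.34). H2afx read 1504 and 1068.1 in wild type and 1279.6 and 1258.9 in knockout. Here both knockout values lay between the wild-type values, and the mean difference was 0.00 (SE 0.35, -0.23 and 0.23 on the numbers).

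Over the 8 member probe sets, 4 were higher and 1 was lower in knockout on both array numbers, against 25.3% and 30.1% of all kept probe sets. The groups did not overlap in 4, against 17.2%: 3 with knockout above (7.62% of all kept) and 1 with knockout below (9.54%). Those 3 were H3f3b, chosen on this contrast, and both single-gene H2afz probe sets, which share their representative sequence. They are also among the 4 that were higher on both numbers, so these counts are a description and were not tested. The members other than H3f3b had mean differences between -0.46 and 0.32, and the median of all kept probe sets was -0.02. Set against each of the 14 other member and shared probe sets within the same arrays, the H3f3b difference was larger by 3.64 to 4.66 on arrays numbered 1 and by 2.65 to 3.66 on those numbered 2.

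**Figure D3:**
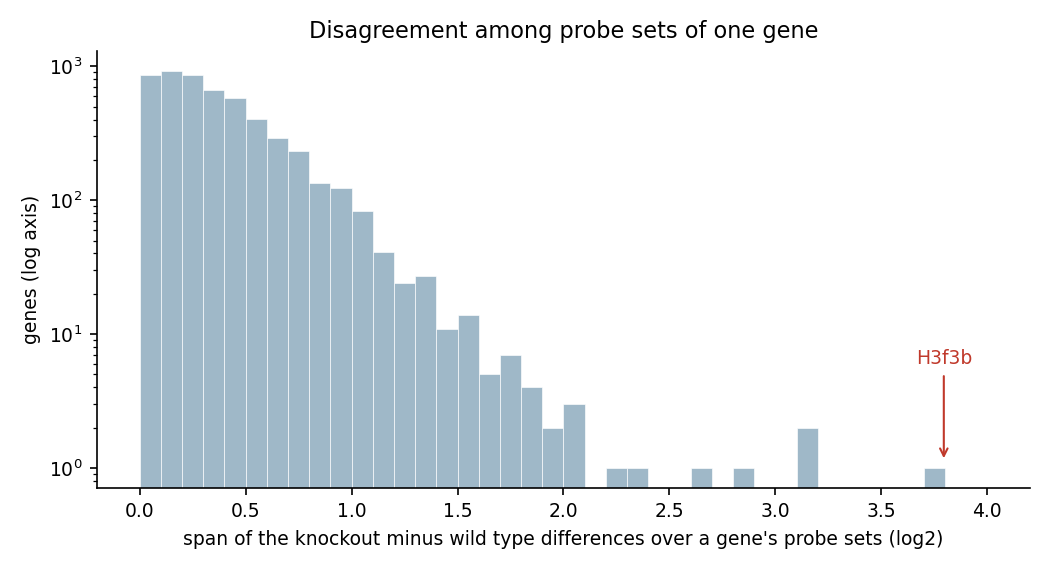
Number of genes (log axis) by the span, the largest minus the smallest knockout minus wild type difference, over all kept probe sets that list the gene alone or with others. H3f3b is the gene farthest to the right, at 3.79, and the median gene lies at 0.30.

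The spread among probe sets of 1 gene was compared over the array, an analysis added after the values were seen. Of 5312 genes listed by at least 2 kept probe sets, H3f3b, with 6, had the largest span of differences, 3.79, where the median was 0.30. Ighm, at 3.19, Tgm2, at 3.19, Laptm5, at 2.82, and Btg1, at 2.60, came next. Of the other members, H2afz taken over its single-gene and shared probe sets spanned 0.13 and H2afv 0.09. H3f3a spread more widely, with its own probe set at -0.46 and the 5 shared H3.3 probe sets at -0.19 to 0.02. Since H3f3b was chosen for the difference of 1 probe set, its place in this order is a description.

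The genes whose pattern over the 4 arrays was most like that of H3f3b probe set 1430357_at, by the root mean square distance between centred log2 values, were Tgm2, a transglutaminase (distance 0.28), Jun (0.38) and Fos (0.59), subunits of AP-1, Dtl, a ubiquitin ligase adaptor (0.57), and Btg1, an antiproliferative gene of resting lymphocytes (0.58). Btg1 probe set 1442018_at read 677.7 and 730.8 in wild type and 8159.3 and 2116.6 in knockout, highest on knockout array 1 as for H3f3b. The other 2 kept probe sets of Btg1 differed by -0.07 and 0.31. So Btg1 too had 1 probe set that differed and others that hardly did. In contrast, the second Jun probe set differed by 4.63, the second Dtl probe set by 2.42 and the other 4 Tgm2 probe sets by 0.72 to 3.31. Both Dtl probe sets (57.4 and 22.6, and 12.4 and 39.6 in wild type) had wild-type means below the filter level. So did some Tgm2 ones, such as that at 3.31 (47.9 and 4.8). These passed it through their knockout arrays, so the filter fixed the direction of their mean difference. The second Jun probe set (232.7 and 238.9) lay above that level in wild type. The order depends on few arrays and on the filter. Without knockout array 1, only Tgm2 of these 5 stayed among the 5 nearest, and without wild-type array 1 or knockout array 2, 3 did. With the filter at the 75% quantile 3 also stayed, and Tgm2 and Dtl dropped out.

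**Figure D4:**
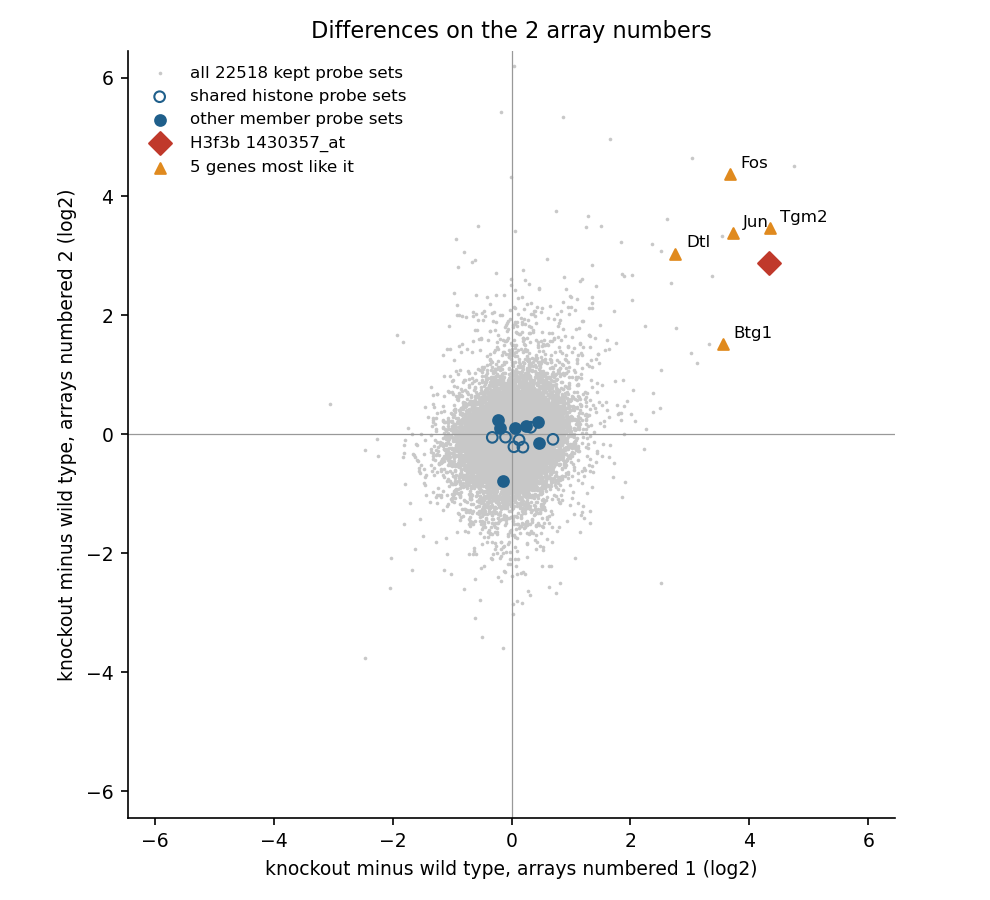
Knockout minus wild type (log2) on arrays numbered 1 (horizontal) against arrays numbered 2 (vertical) for all 22518 kept probe sets (grey), the other member probe sets (filled blue), the shared histone probe sets (open blue), the 5 genes most like H3f3b (orange) and H3f3b (red). H3f3b lies at 4.33 and 2.88 beside Tgm2 and Jun, and the other histone points lie in the central cloud.

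The measured genes beside H3f3b on chromosome 11 gave no like difference. On one side Sap30bp, Recql5 and Myo15b had mean differences of 0.01, 0.21 and 0.24, and on the other Unk, Unc13d and Wbp2 had 0.01, -0.22 and -0.02.

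The difference between array numbers, which the choice of genes did not use, was tested with limma. It was called in 1 of the 8 member probe sets and in 5 of the 7 shared ones, against 34.6% of all kept probe sets (19.5% with number 2 higher and 15.1% with it lower). H2afv 1428029_a_at was higher on arrays numbered 2 by 1.47 (SE 0.23, limma adjusted p = 0.00968), in both genotypes, while the dim H2afv probe set differed by -0.10 (SE 0.19, limma adjusted p = 0.71). Of the 5 shared H3.3 probe sets 4 were higher on number 2, by 1.05 to 1.61 with limma adjusted p between 0.00582 and 0.0132, whereas 1420376_a_at was at -0.22 (SE 0.20, limma adjusted p = 0.413). With quantile normalization 1434127_a_at turned to -0.24 (adjusted p = 0.358), and without the filter on low values no probe set on the array was called between the numbers. The shared H2afz probe set 1416415_a_at was higher by 0.84 (SE 0.19, limma adjusted p = 0.0250), a call that was lost with quantile normalization (0.48) and median centring (0.50). H3f3b 1430357_at was at -0.58 (SE 0.36, limma adjusted p = 0.255): 0.15 between the wild-type arrays and -1.30 between the knockout arrays.

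**Figure D5:**
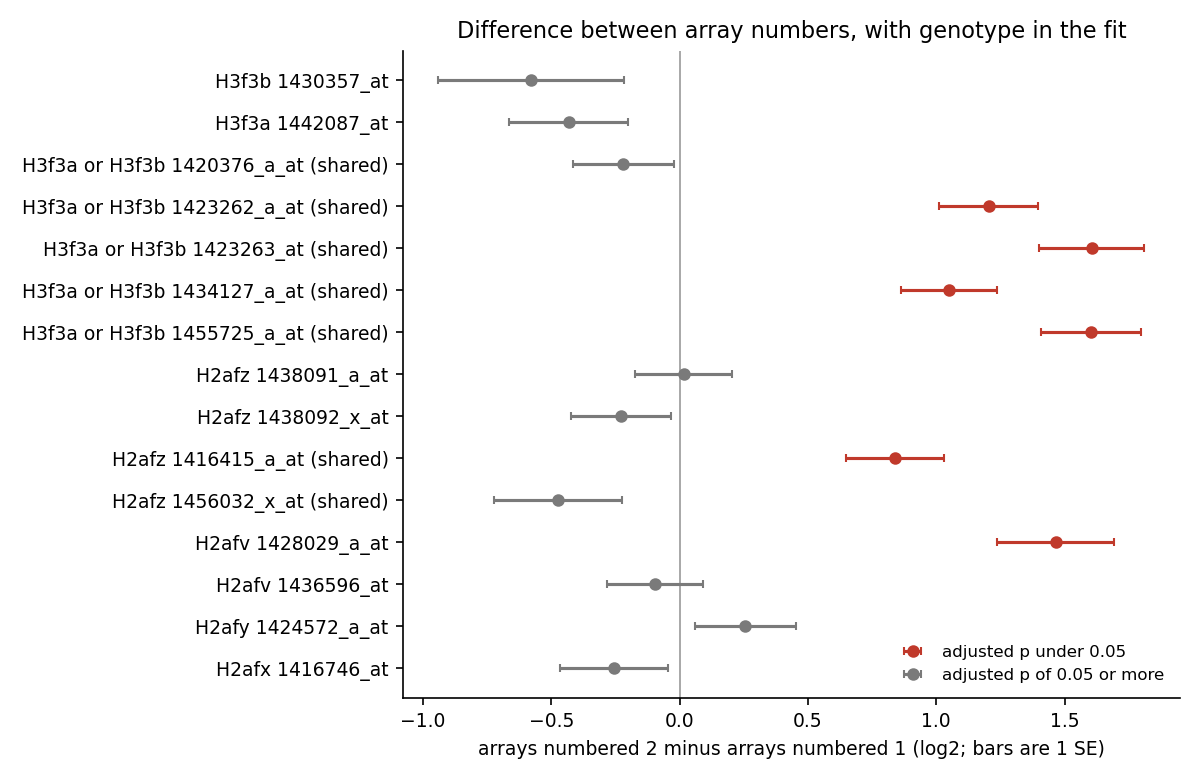
Arrays numbered 2 minus arrays numbered 1 (log2) with bars of 1 SE from limma with genotype in the fit; red marks an adjusted p under 0.05. The 4 red H3.3 points lie between 1.05 and 1.61, while 1420376_a_at and the single-gene probe sets of H3f3a and H3f3b lie below 0.

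The machinery that places these histones showed no called gene in any of its lists, with 0 of 22518 probe sets called by limma without the block; with the block limma called 6 probe sets (0.0266%), none of them of these lists. Of 14 kept genes for H3.3 deposition, 6 were higher and 2 lower on both numbers (median 0.09). Asf1b, a chaperone for H3 and H4, was at 0.36 (SE 0.32), Ubn1, a subunit of the HIRA complex, at 0.18 (SE 0.49), and Chd1, a chromatin remodeller, at 0.16 (SE 0.36); Hira and Daxx, named for their central role in H3.3 deposition and not by the rule, differed by -0.07 and 0.52 and by 0.09 and 0.11 on the numbers. Of 19 genes for H2A.Z exchange, 4 were higher and 4 lower (median -0.05), led by Epc2 at 0.29 (SE 0.48), Anp32e, a chaperone that removes H2A.Z, at -0.27 (SE 0.35), and Znhit1, of the SRCAP complex, at 0.23 (SE 0.32). Of 14 genes that act with H2A.X at DNA breaks, 5 were higher and 4 lower (median 0.01), with Nbn at 0.34 (SE 0.55), the phosphatase Eya3, which acts on H2A.X, at -0.23 (SE 0.41) and the kinase Atm, which phosphorylates H2A.X, at -0.23 (SE 0.34). Of 12 general histone chaperones, 5 were higher and 3 lower (median 0.05). Over all 10211 kept genes, 27.7% were higher and 27.2% lower on both numbers (median -0.002), so these counts lie near the background.

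Other histone genes were few on the array as single-gene probe sets. Of 3 other replacement or linker histones kept, H2afj by its brightest probe set read 2593 and 5546.5 in wild type and 4493.2 and 5567.9 in knockout, Cenpa differed by 0.12 (SE 0.38) and H1fx by -0.44 (SE 0.77). Of 68 listed genes, the replication-dependent histones and their processing factor Slbp, 11 had a single-gene probe set and 8 were kept, with 3 higher and 1 lower on both numbers. Hist1h3f, which encodes a canonical H3, read 84.6 and 101 in wild type and 232.4 and 492.2 in knockout, a mean difference of 1.72 (SE 0.26 and limma adjusted p = 0.344, both with the block). Its higher value was on knockout array 2, whereas that of H3f3b was on knockout array 1.

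Cell cycle genes, with which H2afz and H2afx are known to rise in dividing cells, were higher on both numbers in 6 of 14 and lower in 2 (median 0.19), and Mki67 differed by 0.30 and 1.70. Immediate early genes, a list that holds Jun and Fos and was drawn up with their values known, were higher on both numbers in 13 of 23 and lower in 2, with a median of 0.55 on number 1 and 0.12 on number 2. Their summed signal, over the 27 on the array, kept or not, was 42528 and 45514 on the wild-type arrays. On the knockout arrays it was 82633.2 and 65398.1, highest on knockout array 1 like H3f3b. Heat shock genes were higher in 8 of 14 and lower in 0, with summed signals of 69579.5 and 72518.3 against 110817.4 and 96723.6. With the block limma called 2 of the immediate early genes, Jun and Fos, and 1 of the heat shock genes, Hspa1a, all higher in knockout; without it limma called 0 in either list. The part of these groups, and of the neutrophil and B cell markers, in the H3f3b difference was not tested.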

How the data were processed

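The deposited values are intensities, linear MAS5 signals of single probe sets, per the submitters' processing notes, which here give neither version nor settings nor detection calls. From the values, each array had been scaled to a trimmed mean of 500.003 (2% trimmed at each end). Labelled cRNA was made from 5 micrograms of total RNA, per the labels' protocols. Of 45101 probe sets, 64 controls were left out; of the others 34945 had 1 gene symbol, 932 several and 9160 none, and 34741 symbols were updated by Entrez identifier in a RefSeq table of GRCm38.p6. Signals were transformed as log2(signal + 15.3), the added value being the 25% quantile of all values, and the 22518 probe sets whose mean exceeded the median of means were kept. Array number 1 or 2 was a second term or block in limma 3.58.1 (R 4.3.3; lmFit, eBayes, two-sided, Benjamini-Hochberg over kept probe sets, threshold 0.05), which was tested on simulated data.

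A gene in a list was represented by its brightest kept probe set, and up to 3 genes per list with the largest difference of the same sign on both numbers were named, as were the 5 genes nearest to H3f3b and up to 3 measured neighbours on each side. Summed signals were instead taken over all listed genes with a single-gene probe set, each by its brightest such probe set, kept or not. The members and lists were chosen with earlier results of these data known. Alternatives were the pseudocount, filter, normalization, prior, block and each array left out.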

Additional observations from a re-analysis of the deposited data

How the results depend on the processing

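The direction of the H3f3b difference could not change, since in this contrast, which chose the gene, both knockout arrays lay far above both wild-type arrays. The difference ran from 3.38 with the pseudocount at the median of all values to 3.82 for the log2 ratio of mean signals without a pseudocount (added after seeing the data), and from 2.95 to 4.26 with 1 array left out. With the array number as a replicate block it stayed at 3.61 with a smaller SE. The labels do not say that the numbers pair the samples; across probe sets, which are not replicates, the deviations of wild-type and knockout arrays of 1 number from their own group's mean had a correlation of 0.80, and the block moved the count of probe sets called between genotypes from 0 to 6, or to 260 with a trended prior. With 1 array left out that count was 0 in all 4 fits, in which the lone array is assumed to vary like the other group. The count at least 2-fold higher in every comparison was 37, 125 with no filter, 19 with the filter at the 75% quantile and 107 to 240 with 1 array left out. The count at least 2-fold lower was 9, 5 with the pseudocount at the median, 53 with no filter, 0 with the filter at the 75% quantile and 80 to 289 with 1 array left out. Both leave-out ranges rest on fewer comparisons. The count called between array numbers was 7791, and 0 with no filter; leaving out an array left no residual degrees of freedom for it, so that was not run. Shared H3.3 probe set 1434127_a_at reversed to -0.24 on arrays numbered 2 minus 1 with quantile normalization; the cause was not tested. Without a single array the shared H3.3 differences ran from -0.95 to 0.89, since leaving out an array mixes genotype with array number. Without detection calls, how far a signal lay over background is unknown.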
